A study of Mus musculus with 8 samples.

Results

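C2C12 cells, a mouse myoblast line of the C3H strain that fuses into myotubes when serum is withdrawn, carry p300 at many sites far from any gene start, and some of these sites lie in dense runs. The runs described here were chosen by position in the p300 peak list of control cells. A peak was called distal when its center lay more than 1 kb from every start site of a protein-coding transcript (TSS), and neighboring distal peaks were joined into a chain when the gap between them was at most 12500 bp. Chains of 5 or more peaks were kept as clusters, and the segment of chromosome 8 from 80 to 100 Mb, with 400 peaks, was left out beside 2378 peaks within 1 kb of a TSS. The rule gave 307 clusters that hold 1863 peaks, which is 9.67% of 19273 distal control peaks and 8.45% of all 22051 control peaks, and 2.49% of 12320 chains.

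Chromatin immunoprecipitation with sequencing (ChIP-seq) was carried out for p300 and for myogenin in cells differentiated for 24 h, either in differentiation medium alone (control) or with 50 nM bexarotene, a selective agonist of the retinoid X receptor (RXR), added at the start. Each factor and condition has 1 library, so nothing below has a replicate check, and no p-value is given. Of the 8 samples of the series, the 4 with a peak list were used; input chromatin and H3K27me3 were not used here. The lists hold 22051 control and 9154 bexarotene p300 peaks, and 5912 control and 6642 bexarotene myogenin peaks, as positions only. The paper gives an average read number over all its datasets, and the depth of each library was not used here. A smaller list after treatment and a less deeply sequenced library therefore cannot be told apart from the lists.

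p300 (Ep300) is a histone acetyltransferase that transcription factors recruit to enhancers, where it acetylates histone H3 at lysine 27. Runs of neighboring enhancers are often stitched into one unit and ranked by signal to define super-enhancers, which are known to lie near genes of cell identity. No signal was available to rank these clusters, so they are named by peak density alone. Myogenin (Myog) is a basic helix-loop-helix factor of terminal muscle differentiation. It binds the E-box as a dimer with E proteins. The AP-1 factors, of the bZIP class, bind the sequences TGACTCA and TGAGTCA.

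The sequences shown first come mostly from p300 peaks that overlap myogenin, which are a minority of the cluster peaks, since 84.1% overlapped no myogenin peak. A cluster of 6 peaks lies between Srsf3, which encodes a splicing factor, and Cdkn1a, which encodes the cell cycle inhibitor p21. Each of its p300 peaks overlapped myogenin in at least one list. The central 200 bp of its peaks are given on the plus strand of mm9, with E-boxes (CAGCTG, or CACCTG and its reverse complement CAGGTG) in capitals.
Srsf3 peak 1 (chr17:29187854-29188053): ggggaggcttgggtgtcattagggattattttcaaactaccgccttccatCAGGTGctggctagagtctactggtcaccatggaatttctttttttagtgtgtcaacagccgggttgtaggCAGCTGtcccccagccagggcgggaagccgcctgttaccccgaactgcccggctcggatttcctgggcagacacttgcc
Srsf3 peak 2 (chr17:29190884-29191083): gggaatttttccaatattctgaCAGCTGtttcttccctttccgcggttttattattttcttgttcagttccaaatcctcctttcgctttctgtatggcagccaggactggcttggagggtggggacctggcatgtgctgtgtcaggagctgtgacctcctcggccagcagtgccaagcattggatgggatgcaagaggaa
Srsf3 peak 3 (chr17:29193174-29193373): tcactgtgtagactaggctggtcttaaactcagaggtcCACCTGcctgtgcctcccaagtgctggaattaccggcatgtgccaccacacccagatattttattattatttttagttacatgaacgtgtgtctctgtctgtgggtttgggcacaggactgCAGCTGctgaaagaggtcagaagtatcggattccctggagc
Srsf3 peak 4 (chr17:29193756-29193955): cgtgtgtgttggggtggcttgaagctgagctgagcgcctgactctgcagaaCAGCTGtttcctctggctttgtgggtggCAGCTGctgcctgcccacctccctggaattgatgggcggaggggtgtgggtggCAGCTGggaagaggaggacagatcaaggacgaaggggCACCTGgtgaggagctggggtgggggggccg
Srsf3 peak 5 (chr17:29195009-29195208): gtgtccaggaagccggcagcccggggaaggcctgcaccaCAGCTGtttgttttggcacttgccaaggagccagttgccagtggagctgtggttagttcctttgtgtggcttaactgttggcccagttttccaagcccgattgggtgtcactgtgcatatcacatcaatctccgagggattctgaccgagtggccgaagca
Srsf3 peak 6 (chr17:29200389-29200588): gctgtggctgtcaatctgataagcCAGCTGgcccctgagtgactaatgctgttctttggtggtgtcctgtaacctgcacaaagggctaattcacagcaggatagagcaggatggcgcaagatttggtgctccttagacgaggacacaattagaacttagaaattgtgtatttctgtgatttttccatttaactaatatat

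Peaks 1 and 2 of this cluster were absent from the bexarotene p300 list, and peaks 3 to 6 were kept. Each of the 6 windows held at least 1 E-box. Peak 4, the longest at 492 bp, held 4 E-boxes, separated by 22, 47 and 31 bp. None of the 6 windows held a bZIP sequence. Myogenin overlapped peaks 1 to 5 in the control list and all 6 peaks in the bexarotene list. The cluster spans 12.8 kb (chr17:29187789-29200631), lies outside protein-coding genes and crosses the noncoding RNA gene Gm16197. Its 6 peaks are 18.3 to 27.4 kb from the nearest coding TSS.

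The next peaks come from clusters named for their myogenin peaks or for a high share of p300 peaks kept, and each was kept and under myogenin in at least one list. E-boxes and the bZIP sequences are in capitals. The Runx1 cluster lies upstream of Runx1, a transcription factor gene that is expressed in myoblasts. Rhob encodes a small GTPase of the actin cytoskeleton, and Wisp1 (Ccn4) encodes a secreted matricellular protein.
Runx1 peak 3 (chr16:92954632-92954831): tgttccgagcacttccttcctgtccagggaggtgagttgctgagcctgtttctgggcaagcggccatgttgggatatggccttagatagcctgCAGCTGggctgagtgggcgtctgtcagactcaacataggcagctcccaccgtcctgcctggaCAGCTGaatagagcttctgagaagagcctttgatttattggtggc
Runx1 peak 4 (chr16:92961803-92962002): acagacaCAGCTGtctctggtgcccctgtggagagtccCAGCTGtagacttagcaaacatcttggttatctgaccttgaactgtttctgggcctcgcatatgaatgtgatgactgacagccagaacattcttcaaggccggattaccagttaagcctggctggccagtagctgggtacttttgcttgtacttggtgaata
Runx1 peak 5 (chr16:92963969-92964168): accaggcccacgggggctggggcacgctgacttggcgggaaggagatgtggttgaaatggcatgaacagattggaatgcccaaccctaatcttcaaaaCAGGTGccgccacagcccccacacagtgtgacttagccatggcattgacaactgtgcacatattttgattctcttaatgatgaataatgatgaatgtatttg
Rhob peak 8 (chr12:8456950-8457149): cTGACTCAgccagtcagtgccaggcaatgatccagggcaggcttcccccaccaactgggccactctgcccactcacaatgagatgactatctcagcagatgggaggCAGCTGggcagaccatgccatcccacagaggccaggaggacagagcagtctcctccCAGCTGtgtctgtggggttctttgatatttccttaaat
Rhob peak 9 (chr12:8457569-8457768): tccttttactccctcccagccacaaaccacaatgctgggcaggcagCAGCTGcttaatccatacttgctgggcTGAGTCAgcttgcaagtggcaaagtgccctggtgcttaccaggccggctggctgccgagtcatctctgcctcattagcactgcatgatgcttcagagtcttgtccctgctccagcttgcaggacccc
Wisp1 peak 5 (chr15:66709427-66709626): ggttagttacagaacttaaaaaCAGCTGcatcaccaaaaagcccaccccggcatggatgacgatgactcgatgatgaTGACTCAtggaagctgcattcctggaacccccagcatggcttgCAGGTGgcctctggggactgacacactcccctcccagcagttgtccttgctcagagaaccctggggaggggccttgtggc
Wisp1 peak 8 (chr15:66717710-66717909): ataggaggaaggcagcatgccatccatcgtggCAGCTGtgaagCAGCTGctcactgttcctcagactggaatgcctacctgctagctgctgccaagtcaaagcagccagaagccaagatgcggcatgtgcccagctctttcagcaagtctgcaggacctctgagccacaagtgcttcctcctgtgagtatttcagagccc

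Runx1 peaks 3 and 4 each held a pair of E-boxes, 56 and 25 bp apart, and the pair in Wisp1 peak 8 was 5 bp apart. Rhob peaks 8 and 9 and Wisp1 peak 5 held E-boxes and a bZIP sequence in the same window. The peaks shown are chosen examples. Kept peaks under myogenin without an E-box in the central 200 bp also occurred, such as Frmd8 peak 7, of 243 bp. Sspn peak 8 was another, but it is 1133 bp long and most of it lay outside the searched window. An E-box was in 78.6% of cluster peaks with myogenin in both lists and in 43.1% of those with control-only myogenin. As a contrast, the 1 peak of the Ppara cluster that overlapped myogenin is shown. It was called in the control lists only, for p300 and for myogenin alike, and its window held none of these sequences.
Ppara peak 2 (chr15:85500520-85500719): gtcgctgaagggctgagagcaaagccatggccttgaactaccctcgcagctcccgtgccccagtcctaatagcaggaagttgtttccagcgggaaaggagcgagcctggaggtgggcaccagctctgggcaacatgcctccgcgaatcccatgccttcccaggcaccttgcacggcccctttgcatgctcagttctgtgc

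The clusters were mostly small. There were 160 clusters of 5 peaks, 62 of 6, 40 of 7, 27 of 8 and 18 of 9 or more, up to 15. The median span was 22.4 kb (quartiles 16.5 and 28.5 kb), from 4.45 to 61.8 kb, and the spans summed to 7061.5 kb. The p300 peaks themselves covered a median of 8.01% of a span. Gaps between neighbors had a median of 3.19 kb, and a cluster was a median of 42.8 kb from the next chain. Near the limits of the rule, the widest gap inside a cluster was 12.47 kb and the narrowest gap to a neighboring chain was 12.55 kb. Chains of 4 peaks, just outside the rule, numbered 410, and 37.0% of their peaks were kept with bexarotene. In the chains of 5, just inside, the share was 37.5%.

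**Figure D1:**
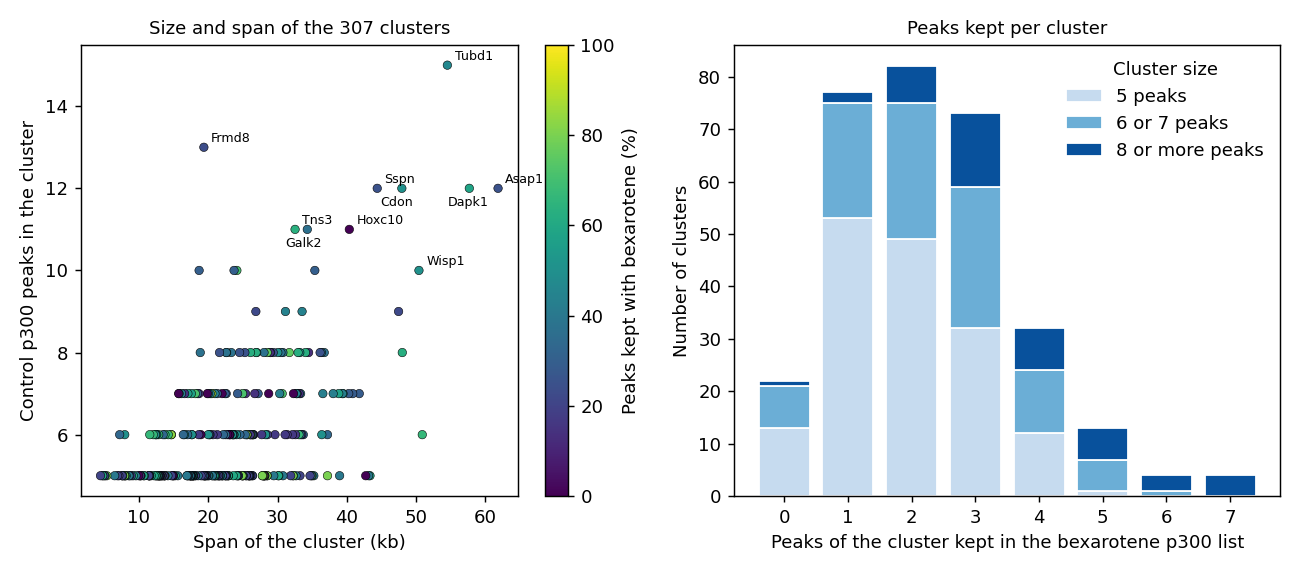
Left, each of the 307 clusters by its span (kb) and its number of control p300 peaks, colored by the percent of its peaks kept in the bexarotene list, with the 10 that hold most peaks named; right, number of clusters by peaks kept, split by cluster size. Most clusters held 5 to 7 peaks, 22 kept none, and 21 kept at least 5.

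Cluster peaks lay in introns of coding genes in 38.5% of cases (718 of 1863), in exons in 1.83% and outside coding genes in 59.6%. For the other 17410 distal peaks these shares were 43.6%, 2.15% and 54.3%. The clusters were thus 5.37 points higher outside coding genes (0.10 to 10.6 with chains as units) and 5.04 points lower in introns, the latter with an interval that includes 0 (-10.3 to 0.17). The median distance to the nearest coding TSS was 39.7 kb, against 38.3 kb, and the median length was 253 bp, against 241.5 bp. A total of 156 clusters (50.8%) overlapped a coding gene. In 255 clusters (83.1%), all peaks had the same nearest gene, and 17 clusters also held a p300 peak within 1 kb of a TSS. The share of distal peaks that fell in clusters ranged from 3.21% on chromosome 7 to 13.7% on chromosome 16. Chromosome 1 held the most clusters, 30.

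The first question was how much of a cluster remained in the p300 list after bexarotene. A control peak was called kept when a bexarotene p300 peak overlapped it by at least 1 bp. Of 1863 cluster peaks, 705 were kept, or 37.8% (95% Wilson interval 35.7 to 40.1, counting error only; SE 1.20 points with chains as units). Over all distal control peaks the share was 33.8%. Among the other distal peaks it was 33.4%, which is 4.46 points below the clusters (95% interval 2.01 to 6.91). With a reciprocal overlap of 50% required, 24.7% of cluster peaks were kept. The difference was then 1.68 points, and its interval included 0 (-0.32 to 3.79, with peaks as units). The difference of 4.46 points was mostly between single peaks and the rest, since chains of 1 were kept at 30.2% and chains of 2 to 4 at 36.3%. Against chains of 2 to 4 the clusters were 1.51 points higher, with an interval that includes 0 (-1.04 to 4.06). From chains of 5 upward no trend with size appeared, with 37.5, 37.6, 35.4, 43.1 and 37.4% kept in chains of 5, 6, 7, 8 and 9 or more.

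The length of a peak moved with the share kept far more than the cluster did. Of cluster peaks at the smallest interval of the list, 159 bp, 8.55% were kept. The share was 22.5% at 198 to 242 bp, 43.7% at 243 to 349 bp and 70.7% at 350 bp or more. The other distal peaks of these classes were kept at 8.80, 21.7, 40.9 and 66.7%. Within the same 4 length classes, weighted by the cluster peaks, the clusters exceeded the other distal peaks by 1.92 points, and the interval included 0 (-0.11 to 3.94). The longest peak of a cluster had a median length of 536 bp and was kept in 217 of 307 clusters (70.7%), against 31.4% for the remaining cluster peaks. The outermost peaks were kept at 36.2% and the inner peaks at 38.7%. Whether length stands here for peak strength was not tested, because the lists hold no tag counts.

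**Figure D2:**
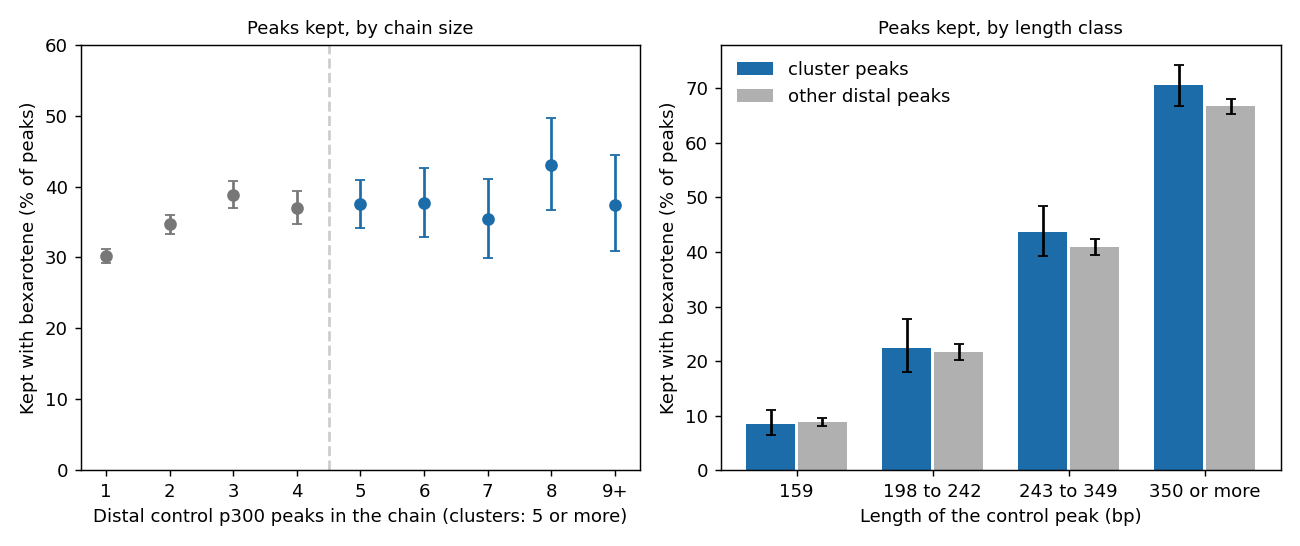
Percent of distal control p300 peaks kept in the bexarotene list, with 95% Wilson intervals, by the number of peaks in the chain (left; blue, clusters) and by peak length in bp (right; blue, cluster peaks; gray, other distal peaks). The share lies between 35.4 and 43.1% across cluster sizes and goes from 8.55 to 70.7% across length classes of cluster peaks.

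Few clusters kept all of their peaks or none. A median of 40% of the peaks of a cluster were kept (quartiles 20 and 50%, SD 21.1 points over 307 clusters). At least 1 peak was kept in 285 clusters (92.8%) and more than 50% in 74. All peaks were kept in 1 cluster and none in 22 (7.17%). How many such clusters the share of 37.8% kept per peak would give by itself was not computed, so these counts have no background beside them. The share kept differed little with the state of the neighboring peak. After a kept peak, the next one along the chromosome was kept in 39.9% of cases (237 of 594), and after a lost peak in 37.1% (357 of 962), with overlapping intervals (36.0 to 43.9 and 34.1 to 40.2%). At gaps of at most 1 kb these shares were 43.9% and 35.5%, and the intervals overlapped again.

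The cluster that was kept whole holds 5 peaks 27.96 kb across (chr1:72997951-73025907), with Tnp1, a gene for a sperm chromatin protein, as the nearest coding gene. It had no peak at the smallest interval, 2 control and 5 bexarotene myogenin peaks in its span and no bZIP sequence within 100 bp of a peak center. Among clusters of 8 or more peaks, the highest shares were those of the Runx1 cluster and the 2310037I24Rik cluster, each with 6 of 8 kept, and of the Rhob cluster, with 7 of 10. The Hoxc10 cluster, with 0 of 11, and the Gm7866 and Gtdc1 clusters, each with 1 of 8, had the lowest.

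The 22 clusters with no peak kept included those of Hoxc10, Ppara, Cd44, Spred2 and Met. Ppara encodes a nuclear receptor for fatty acids that pairs with RXR, Cd44 a hyaluronan receptor, Spred2 an inhibitor of Ras signaling, and Met the receptor for hepatocyte growth factor. These 22 clusters held short peaks, with 49.6% of their 129 peaks at the smallest interval. That share was 33.3% in the 211 clusters with at least 1 and at most 50% kept, and 17.6% in the 74 with more. The bZIP sequence was in 13.95, 25.8 and 25.6% of their peaks, in the same order. The median GC content, taken over the peaks of a cluster and then over clusters, was 50%, 46.5% and 46.25%. These classes were sorted by the share kept, which itself moved with peak length, so their order in length follows from the sorting. Their differences in bZIP share and GC content were not tested.

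New p300 peaks inside the clusters were few. The spans held 800 bexarotene p300 peaks, and 72 of them (9.0%) overlapped no control p300 peak. Among distal bexarotene peaks outside the spans this share was 16.2% (1138 of 7036), whereas the 800 inside were not limited to distal peaks. The spans were drawn where the control list is dense, so the rule itself bears on this contrast. The new peaks fell in 50 clusters, with 5 each in the Frmd8 and Acta2 clusters and 4 in the Olfr161 cluster. When the rule was applied to the bexarotene list instead, it gave 41 chains with 240 of 7823 distal peaks (3.07%), and 33 of these 41 overlapped a control cluster. That is 10.7% of the 307 control clusters. Those with most peaks were the Tubd1 chain, with 10 bexarotene peaks, and the Runx1, Tns3, 2310037I24Rik, Acta2, Olfr161 and Frmd8 chains, with 8 each. These overlaps are of spans, and the peaks shared with control p300 varied. All 10 peaks of the Tubd1 chain overlapped control p300, and 7 of 8 in each of the Runx1, Tns3 and 2310037I24Rik chains. In the Acta2 chain, near the gene for smooth muscle actin, 4 of the 8 did, in the Frmd8 chain 3 and in the Olfr161 chain 2. Of the 41 chains, 8 overlapped no control cluster, among them those led by Ndfip2 and Actg1.

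**Figure D3:**
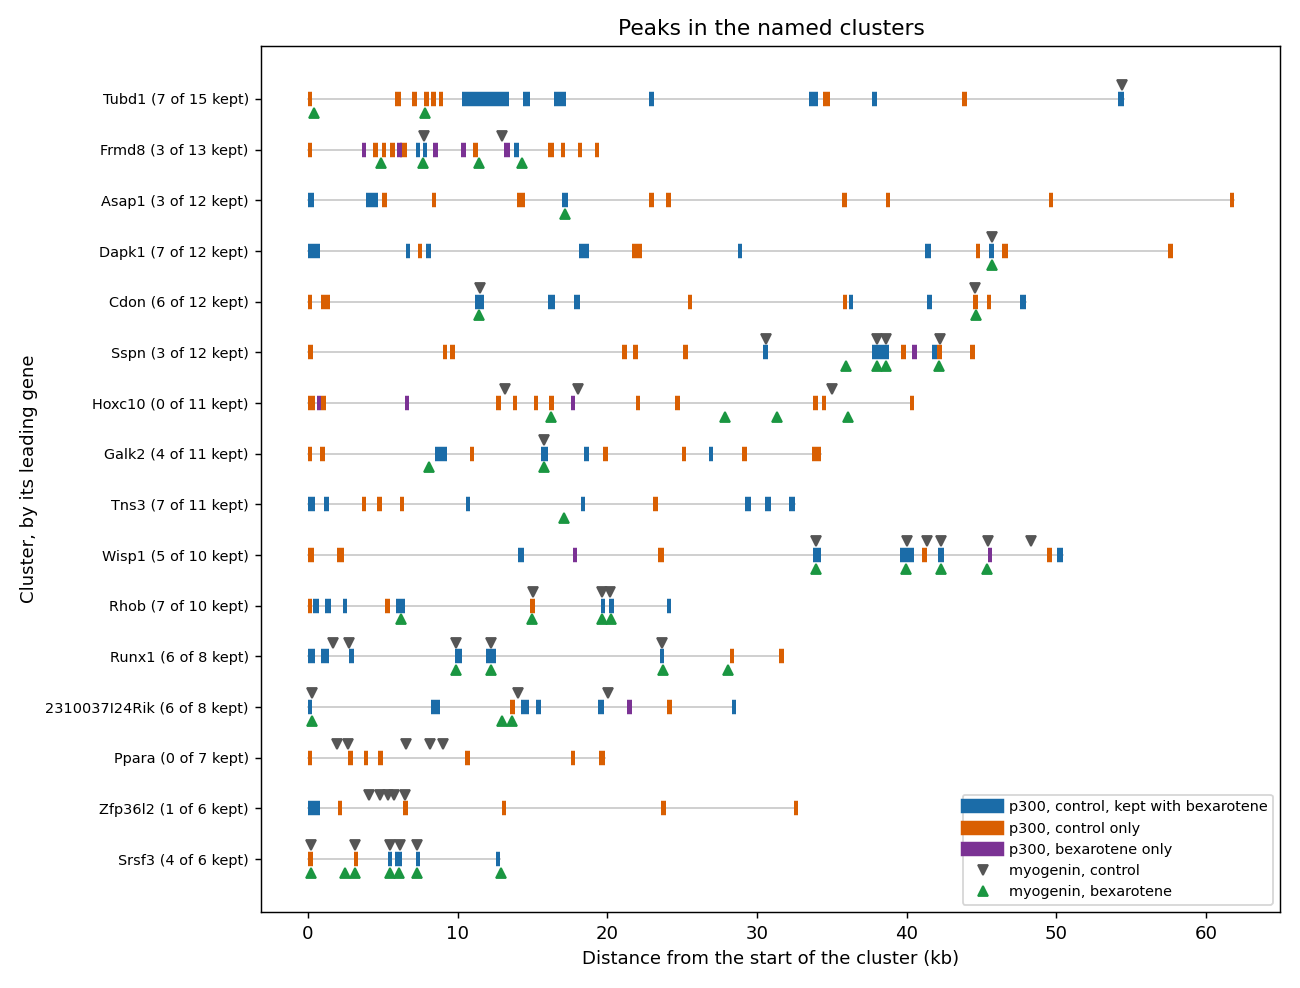
Positions of p300 and myogenin peaks in 16 named clusters, in kb from the start of each cluster; bars are p300 peaks (blue, kept; orange, control only; purple, bexarotene only) and triangles are myogenin peaks (gray, control; green, bexarotene). Most of these clusters hold both kept and lost p300 peaks, and the Hoxc10 and Ppara clusters keep none. All 5 control and 6 of the 7 bexarotene myogenin peaks of the Srsf3 cluster overlap its p300 peaks.

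The cluster with most peaks lies over the 3' part of Vmp1, a gene for an autophagy protein, and crosses the microRNA gene Mir21 (chr11:86383717-86438230). It takes the name Tubd1 from the coding TSS nearest to 13 of its 15 peaks. It holds the longest p300 peak of the control list, 3116 bp, which was kept, and 7 of its 15 peaks were kept in all. Its peaks 7 to 11, a run of neighbors, were all kept, while peaks 1 to 6, the outermost run toward Tubd1, were all lost. Within 100 bp of the center, only 1 of its 15 peaks held an E-box and 4 held a bZIP sequence. Most of the 3116 bp peak was thus not searched. Myogenin gave 1 control and 2 bexarotene peaks in the span.

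The Frmd8 cluster crosses the long noncoding RNA gene Neat1 (chr19:5832153-5851517), packs 13 peaks into 19.4 kb and kept 3. Its span held 3 myogenin peaks called only with bexarotene and 1 called only in control.

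The Hoxc10 cluster lies within the HoxC locus (chr15:102777656-102818017), whose genes pattern the body axis, and also holds 4 p300 peaks within 1 kb of a coding TSS. None of its 11 distal peaks was kept, and 8 of the 11 were at the smallest interval. The bexarotene list had 3 p300 peaks there that overlap no control peak. Its myogenin peaks also differed between the lists, with 3 control peaks and 4 bexarotene peaks that do not overlap each other. All 3 control peaks and most of the bexarotene ones were at the smallest interval of their list, 172 and 168 bp. Such peaks make up 54.8% of the control and 50% of the bexarotene myogenin list. Within 100 bp of the center, none of its 11 peaks held a bZIP sequence and 1 held an E-box.

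The other clusters among the 10 with most peaks were kept in part. The last place among these was shared by 5 clusters of 10 peaks, and Wisp1 took it by its longer span. The Dapk1 cluster (chr13:60510926-60568609) kept 7 of 12 peaks and the Tns3 cluster (chr11:8574685-8607213) 7 of 11. Dapk1 encodes a death-associated kinase, and Tns3 a tensin of focal adhesions. The Cdon cluster kept 6 of 12, and its nearest coding gene was Cdon for 6 peaks and Gm5614 for 6. Cdon encodes a cell surface receptor that promotes myogenic differentiation. The Wisp1 cluster kept 5 of 10, and the Galk2 cluster, which is wholly intronic, kept 4 of 11. The Asap1 and Sspn clusters kept 3 of 12 each. Asap1 encodes an Arf GTPase-activating protein and Sspn encodes sarcospan, a member of the dystrophin complex. The Asap1 cluster is the widest, at 61.8 kb.

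The second question was where myogenin lay in the clusters. Control myogenin overlapped 205 of 1863 cluster peaks, or 11.00% (Wilson 9.66 to 12.51), against 9.22% over all distal control peaks. The difference from the other distal peaks was 1.97 points (0.16 to 3.78), and 1.37 within the same length classes (-0.42 to 3.15). Bexarotene myogenin overlapped 232, or 12.45% (11.03 to 14.03), against 11.6% over all distal peaks, a difference of 0.95 points from the others with an interval that includes 0 (-0.93 to 2.82). Both myogenin lists overlapped 140 cluster peaks (7.51%), the control list alone 65 (3.49%), the bexarotene list alone 92 (4.94%) and neither 1566 (84.1%). Among the other distal peaks these shares were 6.60, 2.43, 4.91 and 86.1%. The control-only share was 1.06 points higher in clusters (0.18 to 1.94), and the intervals of the other differences include 0. Cluster peaks therefore carried myogenin at a share within about 2 points of the background.

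Counted by span, 149 clusters (48.5%) held a control myogenin peak and 161 (52.4%) a bexarotene one, and 188 (61.2%) held at least 1 of either. In clusters of 8 or more peaks the control and bexarotene shares were 64.4 and 71.1%. Spans of smaller chains were not counted, so these shares have no background beside them. Myogenin with bexarotene but not in control was found in 39 clusters, and the reverse in 27. The spans held 274 control and 304 bexarotene myogenin peaks, or 3.88 and 4.31 per 100 kb. Of these, 121 were in the control list alone and 150 in the bexarotene list alone. Among distal control myogenin peaks, 56.8% inside the spans and 61.0% outside were called in both myogenin lists. For distal bexarotene myogenin peaks these shares were 50.2% and 46.9%. Of the distal myogenin peaks inside the spans, 206 of 264 control (78.0%) and 234 of 301 bexarotene peaks (77.7%) lay on a p300 peak of the cluster. Outside the spans, 37.7% of distal control myogenin peaks and 36.9% of distal bexarotene ones lay on a distal control p300 peak. Here too the rule bears on the contrast, because the spans were drawn around dense p300.

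p300 peaks under myogenin were kept more often than those without it. With myogenin in both lists, 104 of 140 cluster peaks (74.3%, Wilson 66.5 to 80.8) were kept. The share was 64.6% (42 of 65) with myogenin in control only and 57.6% (53 of 92) with myogenin in the bexarotene list only. Without myogenin it was 32.3% (506 of 1566, 30.0 to 34.7). In the other distal peaks these shares were 68.1, 54.6, 54.7 and 28.9%, so there too the share was highest with both lists and lowest with none. The median lengths of these cluster peaks were 339, 347, 320.5 and 244 bp, and length moved with the share kept as described. The part of length in this difference was not tested.

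**Figure D4:**
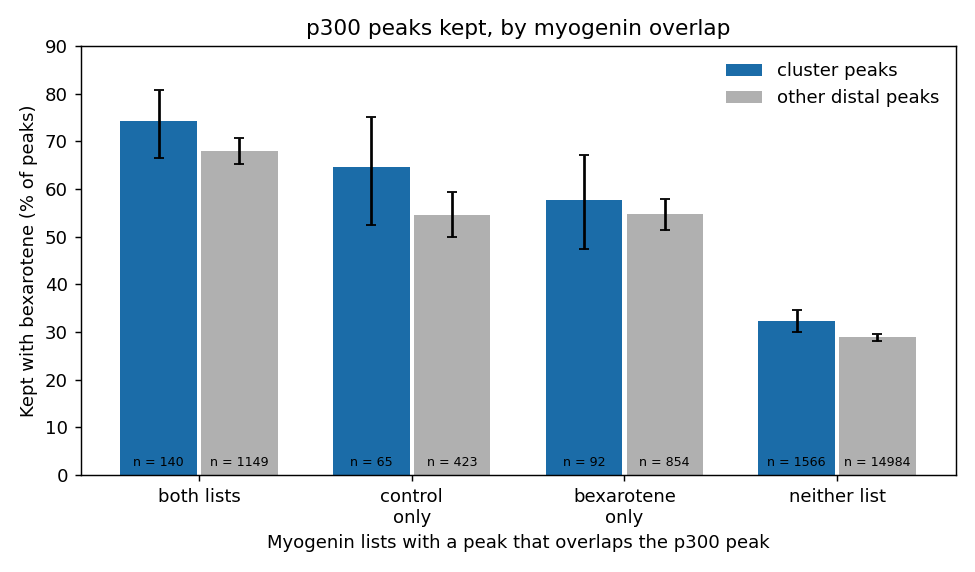
Percent of control p300 peaks kept with bexarotene, by which myogenin lists overlap the peak, in cluster peaks (blue) and other distal peaks (gray); error bars are 95% Wilson intervals and n is the number of peaks. Cluster peaks with myogenin in both lists were kept at 74.3% and those in neither at 32.3%.

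Among single clusters, control myogenin peaks were most numerous in the Wisp1 cluster, with 6, followed by the Runx1, Ppara, Zfp36l2, Srsf3, Pitpnb and Plxna1 clusters, with 5 each. The spans differ, from 5.36 kb for Plxna1 and 12.8 kb for Srsf3 to 50.4 kb for Wisp1. These differed in what bexarotene left. In the Srsf3 cluster all 5 were also called with bexarotene, with 2 more. In the Runx1 cluster (chr16:92951834-92983533), 3 of the 5 were shared. The Wisp1 cluster shared 4 of its 6, the Plxna1 cluster 4 of 5 and the Pitpnb cluster 2 of 5. All 5 p300 peaks of the Plxna1 cluster overlapped myogenin, and 4 of them were kept. In the Ppara cluster (chr15:85497842-85517711) no myogenin peak was called with bexarotene, and 0 of its 7 p300 peaks were kept. The Zfp36l2 cluster, near the gene of an mRNA-decay factor, likewise had no bexarotene myogenin peak and kept 1 of 6. Most control myogenin peaks of both clusters were at the smallest interval, 172 bp, as were 54.8% of that list. In the plot of peak positions, most of the control myogenin peaks of the Ppara and Zfp36l2 clusters lie between their p300 peaks, and 1 p300 peak in each overlaps myogenin. Peaks called with bexarotene alone numbered 4 in the Hoxc10 cluster, and 3 each in the Frmd8, Tomm20, Plekhg5, Arhgef2, Tnp1 and Camk2g clusters.

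The third question was which short sequences the clusters share. Each word was searched in the 100 bp on either side of the peak center, in both orientations, and the background was windows of the same length 2 kb away that hold no control p300 peak. An E-box was present in 35.1% of cluster peaks (653 of 1863), against 21.1% of the windows beside them. The difference from the 33.3% of the other distal peaks was 1.78 points, and its interval includes 0 (-0.71 to 4.27). Over the whole peak interval instead of the 100 bp, the difference was 3.52 points (1.17 to 5.89, with peaks as units). The background differed by core. CAGCTG was in 28.5% of cluster peaks and 9.18% of the windows beside them, while CACCTG, whose reverse complement is CAGGTG, was in 10.3% and 13.5%. For CACCTG the clusters exceeded the other distal peaks by 1.41 points, with a lower bound close to 0 (0.01 to 2.81). An E-box was found in at least 1 peak of 278 clusters and a bZIP sequence in at least 1 peak of 234, with both in 210.

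The bZIP sequence was less frequent in clusters than elsewhere. It was in 24.96% of cluster peaks (465 of 1863) and 30.9% of the other distal peaks, a difference of -5.98 points (-8.26 to -3.69). Within the same length classes the difference was -5.59 (-7.85 to -3.33). The share went from 33.3% in chains of 1 through 30.7, 27.4 and 25.4% in chains of 2, 3 and 4. In clusters of 5, 6, 7, 8 and 9 or more it was 24.5, 23.7, 26.4, 27.3 and 24.6%, without a further fall. Beside the clusters 3.97% of windows held it, so the sequence was 6.28 times as frequent in cluster peaks as next to them. For the other distal peaks that ratio was 9.16. The Runx word TGTGGT was also somewhat less frequent in clusters, at 30.6% against 33.7% (difference -3.10, -5.27 to -0.92). Against chains of 2 to 4 its difference was -2.27 points, with an interval that includes 0 (-4.55 to 0.01). The background of the Runx word was 14.03%.

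The remaining words showed no difference from the other distal peaks larger than their intervals. The Tead word GGAATG was in 19.3% of cluster peaks, against 11.3% of the windows beside them, and the Sp1 word GGGCGG in 5.74%, against 3.03%. The Mef2 word, CTANNNNTAG, was in 3.01%, against 3.30%. The nuclear receptor word AGGTCA was in 12.2% of cluster peaks, and in 13.0% of the windows beside them. A direct repeat of it spaced by 1 bp, which RXR dimers are known to bind, was in 0 of 1863 windows, which allows a share of up to 0.161%. It was also in 0 of 17410 windows of the other distal peaks and 0 of 3399 windows beside the clusters, and in 14 of 33976 windows beside the other distal peaks. Absence of these letters says nothing about binding of the receptor.

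**Figure D5:**
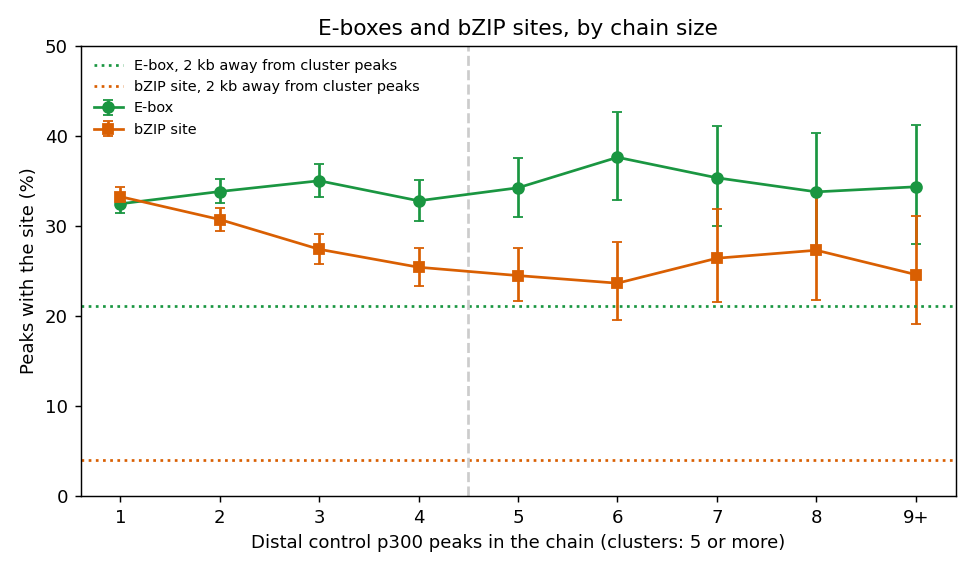
Percent of distal control p300 peaks with an E-box (green) or a bZIP sequence (orange) within 100 bp of the center, by the number of peaks in the chain, with 95% Wilson intervals; dotted lines give the share in windows 2 kb from cluster peaks. The bZIP share goes from 33.3% in chains of 1 to 25.4% in chains of 4 and is 23.7 to 27.3% in clusters, while the E-box share has no such fall.

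Within the clusters, the E-box and the Runx word were more frequent in kept peaks than in lost ones. An E-box was in 39.9% of kept and 32.1% of lost cluster peaks, and the Runx word in 35.6% and 27.6%. For the bZIP sequence the shares were 26.5% and 24.0%, with overlapping intervals (23.4 to 29.9 and 21.6 to 26.6%). With myogenin in both lists, 78.6% of cluster peaks held an E-box and 14.3% a bZIP sequence. With bexarotene-only myogenin an E-box was in 57.6%, with control-only myogenin in 43.1% and without myogenin in 29.5%. The peaks of the Srsf3 cluster printed above had an E-box in all 6 windows and a bZIP sequence in none.

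The last question was which genes the clusters lie near. By the nearest coding TSS, 339 of 22232 protein-coding genes (1.52%) had at least 1 cluster peak, and 22 of them had peaks of 2 or more clusters. The nearest gene need not be the gene that an enhancer regulates, and expression was not used here. The genes with most cluster peaks were Mtss1 (19 peaks in 3 clusters, 5 kept), Asap1 (17), Runx1 and Tns3 (16 each, 9 kept in both) and Tbl1xr1 (15, 10 kept). Mtss1 encodes a protein that bends membranes and binds actin, and Tbl1xr1 a subunit of the nuclear receptor corepressor complex. Among 17 gene lists, 41 of 454 genes (9.03%) had a cluster, against 1.52% of all coding genes. The lists were chosen with earlier results of these data known. A gene could have a cluster only where it had distal peaks, and 5957 genes (26.8%) had any. Of those, 5.69% had a cluster.

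Genes of the extracellular matrix had clusters most often, 9 of 39 listed, or 28.1% of those with a distal peak. Col4a2, a basement membrane collagen, had 14 cluster peaks with 6 kept, and Col6a2, a microfibril collagen, had 10 with 3 kept. Tnc, the gene of tenascin C, had 8 with 4 kept, and Col3a1, a fibrillar collagen, 6 with 2 kept. Thbs1, the gene of thrombospondin 1, and Adamts5, a proteoglycan protease, had 5 each with 1 kept.

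TGF-beta, BMP and activin signaling had 7 of 41 (24.1% of those with a distal peak). Its members ranged over ligands (Tgfb2 and Bmp4, each with 3 of 5 kept), receptors (Tgfbr2 with 3 of 5 and Acvr2a with 2 of 6) and nuclear factors. Smad3, which carries the signal to DNA, kept 3 of 14 peaks, and Tgif1, a corepressor of the pathway, kept 5 of 8. Actin cytoskeleton and focal adhesion genes had 6 of 34 (23.1%). Among them, Tns3 had 16 peaks, Myh9, a nonmuscle myosin, had 9 with 3 kept, and Cald1 and Fhl2 had 7 each with 2 kept. Receptor tyrosine kinase and Ras feedback genes had 4 of 33 (13.8%). Peaks kept were 0 of 6 for Spred2, 0 of 5 for Met, and 1 of 5 each for Nrp2 and Pdgfc.

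Of 52 sarcomere genes 2 had a cluster (10.5% of those with a distal peak). Tpm1 (tropomyosin) had 5 peaks with 1 kept and Mylk2, the skeletal myosin light chain kinase, had 3 with 1 kept. Of 20 fusion and adhesion genes, Ncam1 alone had a cluster (8.33% of those with a distal peak), with 2 of 6 kept. Of 25 retinoid receptors and targets 2 had a cluster (15.4% of those with a distal peak). Ppara had 0 of 7 kept and Rara, a retinoic acid receptor, 1 of 6. Jun, the 1 of 19 AP-1 factor genes with a cluster (11.1% of those with a distal peak), kept 4 of 5. Of 20 genes of the Runx, Tead and YAP list, Runx1 and Vgll3, a cofactor of Tead, had clusters (13.3% on the same base). Vgll3 kept 2 of 5. Of 27 regulators of other mesenchymal lineages 3 had a cluster (15.8% on that base). Klf4 kept 4 of 8, Zeb1 3 of 5 and Zeb2 1 of 5. Igfbp7, the 1 of 16 insulin-like growth factor genes with a cluster (7.69% on that base), kept 1 of 4. Cdkn1a, the 1 of 23 cell cycle genes (8.33% on that base), kept its 1 peak. The Notch, Wnt and acetyltransferase and deacetylase lists had no cluster, with 11, 18 and 6 genes that have a distal peak. In the housekeeping and ribosomal list, 1 of 20 genes had a cluster, or 14.3% of the 7 with a distal peak. Over all genes with a distal peak the share with a cluster was 5.69%. Each list with a cluster lay above this share, the housekeeping one included, so an excess over it was not particular to the named classes.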

How the data were processed

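The deposited files are lists of p300 and myogenin peak positions in mm9, counted from 0, with no score or count. The authors aligned p300 reads with Bowtie and myogenin reads with BWA, removed duplicates with Picard and called peaks in each library with HOMER. The calling threshold is therefore fixed, and the depth of each library was not used here. Positions are printed counted from 1.

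Distances were measured from peak centers to 45981 coding start sites in GENCODE vM1, and sequences were read from the mm9 genome. Shares have 95% Wilson intervals, for the counting error. Differences in the main results have intervals with chains as units, because peaks of a chain are neighbors, and those under other settings have Newcombe intervals with peaks as units. Calculations used Python 3 with numpy and were checked on simulated intervals. Clusters and genes were named by rule: the 10 clusters with most peaks, the 3 highest and 3 lowest shares kept among clusters of 8 or more peaks, the 5 with most control and with most bexarotene-only myogenin, and the genes of 17 lists. The cluster kept whole, those with no peak kept, those with tied counts of myogenin or new p300 peaks, those of the bexarotene chains and the genes with most peaks were named after their values were seen. The clusters, lists and words were chosen with earlier results of these data known. Of 455 listed genes, 454 matched. Some items that the naming rule selects are not reported here.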

Additional observations from a re-analysis of the deposited data

How the results depend on the processing

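Of 110 alternative settings, 82 left the value within its interval or count limit, 28 moved it and 0 reversed its direction. Requiring 4 or 8 peaks gave 717 or 45 clusters with 3503 or 411 peaks, and at 8 peaks the share kept was 40.4% and the clusters with control and bexarotene myogenin were 64.4 and 71.1%. Under a reciprocal overlap of 50% the share kept was 24.7%, its difference from other distal peaks 1.68 points (-0.32 to 3.79), and the peaks with control and bexarotene myogenin 5.53 and 6.33%. With centers within 500 bp the share kept was 40.2% and that with control myogenin 12.6%. For peaks longer than the smallest interval these were 50.9 and 13.2%, with 14.4% for bexarotene myogenin and 27.6% for the bZIP sequence. Counting clusters by peaks that overlap myogenin, not by span, gave 25.7 and 28.7% at a reciprocal overlap of 50%, and 37.5 and 41.0% for the longer peaks, for control and bexarotene. The difference in the share kept was 7.68 points against chains of 1 and 1.92 within length classes, and that in the bZIP share -8.31 points against chains of 1. Windows of 50 bp gave 14.9% bZIP and 22.3% E-box, and the whole interval 30.1 and 43.1%, by construction of the window. The E-box difference was 2.13 points at 50 bp (0.20 to 4.16), 3.52 over the whole interval (1.17 to 5.89) and 2.58 against chains of 1 (0.22 to 4.99), and these intervals exclude 0, where the main one does not; with chains as units the last includes 0 (-0.01 to 5.17). At 8 peaks the bZIP difference was -4.42 points and its interval reached 0 (-8.48 to 0.08). Joining peaks at up to 15 kb gave a difference in the share kept of 2.81 points (0.84 to 4.82), and requiring 8 peaks 6.72 (2.04 to 11.6). No paired analysis was possible because each condition has 1 library. Without replicates or tag counts, a peak missing from the bexarotene list may have fallen just short of the threshold, and its change in signal is unknown.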
